A study of Mus musculus with 2 samples.

Results

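Transforming growth factor beta (TGF-beta) genes were examined in the tibia of telomerase-deficient mice and of controls. The set comprised the 3 ligands Tgfb1, Tgfb2 and Tgfb3, the receptors Tgfbr1, Tgfbr2 and Tgfbr3, the latency proteins Ltbp1 and Ltbp3, the matrix protein gene Tgfbi and the feedback inhibitor gene Smad7. These 10 genes were chosen by gene symbol, out of 19057 genes with a probe on the array, and 26 probes carried their symbols. RNA came from whole tibia of 22-week-old female C57BL/6 mice, which were untreated. The control pool was TERC+/+ and the test pool TERC-/-, named G3 - mTERC-/- in the study design, a genotype that lacks the RNA template of telomerase in every cell. Each pool mixed RNA of 3 mice and was hybridised to 1 Illumina mouse bead array, so every difference given here describes 2 pools, has no standard error and was not tested.

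TGF-beta is secreted as an inactive complex. A part cut from the precursor, the latency-associated peptide, stays wrapped around the ligand. Latent TGF-beta binding proteins such as those encoded by Ltbp1 and Ltbp3 tie the complex to the matrix until integrins, proteases or acid release it. The free ligand binds the type II receptor (Tgfbr2), which phosphorylates the type I receptor (Tgfbr1), which in turn phosphorylates SMAD proteins, while the type III receptor (Tgfbr3, betaglycan) presents ligand to the others. Bone matrix is a large store of latent TGF-beta, and resorbing osteoclasts release it.

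A probe counted as detected where its deposited detection p-value was under 0.01, which held for 16640 probes in TERC+/+ and 15363 in TERC-/-. The median probe read 127 in the former and 138 in the latter, in raw intensity. The single Terc probe was not above background on either array, with raw intensities of 112 on both, and so does not check the knockout. Bone was recognisable on both arrays, because 6 osteoblast markers were detected on both, among 7 with a probe (Dmp1, the other one, was not detected). The tibia also holds marrow, cartilage, fat and attached muscle, and in such a mixture fewer cells of a type and less RNA per cell cannot be told apart.

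Among the 10 genes, Tgfbi was 3.57-fold higher and Tgfb3 2.33-fold lower in the TERC-/- pool, and the other 7 detected genes lay within 2-fold. Smad7 was not detected. Normalized log2 values were used for these differences, always as TERC-/- minus TERC+/+, after correction of the background and quantile normalization, and 2-fold was a rule of size. One of 9 genes was therefore 2-fold or more higher and 1 of 9 2-fold or more lower. Of all 9953 detected genes, 6.86% were 2-fold or more higher and 8.81% were 2-fold or more lower, so counts this small do not set the TGF-beta genes apart. Differences were below 0 for 7 of the 9 genes, and the median log2 difference of the 9 genes was -0.54, against 0.01 for all detected genes, whose 25th and 75th percentiles were -0.45 and 0.42.

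**Figure D1:**
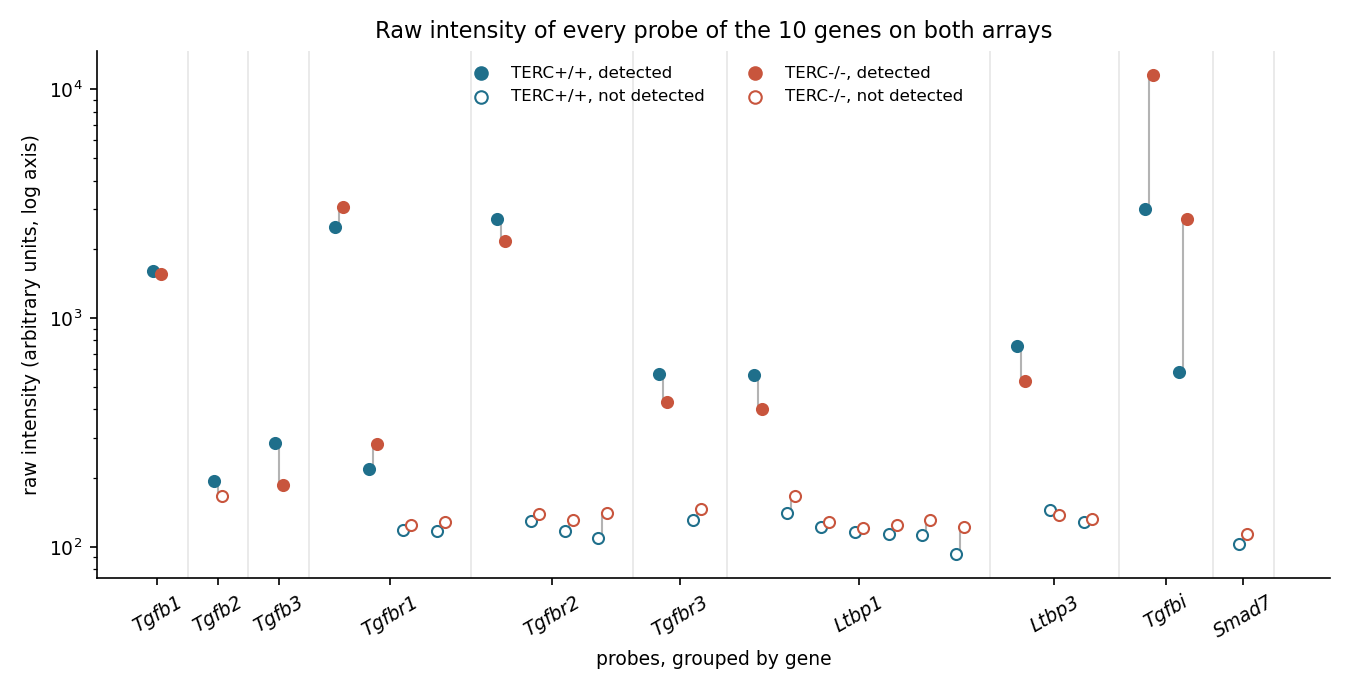
Raw intensity (log axis, arbitrary units) of the 26 probes of the 10 genes, with the TERC+/+ array in blue and the TERC-/- array in red, and open circles where a probe was not detected. Both Tgfbi probes are higher on the TERC-/- array, and the 15 probes detected on neither array lie between 93.3 and 167.

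The ligands differed from each other in how far the pools stood apart. Tgfb1, the main TGF-beta of bone and of platelets, had a raw intensity of 1614 on the TERC+/+ array and 1556 on the TERC-/- array, and its normalized log2 values were 10.63 and 10.45. The difference of -0.18 was the smallest in size among the ligands. The Tgfb1 transcript was thus clearly detected in both pools at levels close to each other.

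Tgfb3, a ligand known from palate fusion and from connective tissue, was the gene with the largest negative difference of the 9. Its 1 probe (gene at chr12:86056743-86079041, GRCm38.p6) read 285 on the TERC+/+ array and 186 on the TERC-/- array, with a detection p-value of 0.00107 on both. The normalized log2 values were 7.50 and 6.28, a difference of -1.22. In order from the lowest, Tgfb3 was number 699 of 9953, so 7.02% of detected genes differed by as much or more in this direction. The probe was dim, and the size of its difference depended on the background: it was -0.64 with the background left in, -0.95 with an offset of 50 and -0.65 in the authors' deposited normalized values, none of which reached 2-fold.

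Tgfb2, a ligand of developing bone, cartilage and heart, was above background on the TERC+/+ array only. Its probe read 195 there, with a detection p-value of 0.00107, and 167 on the TERC-/- array, with a detection p-value of 0.0118, just outside the limit. The measured log2 values were 6.49 and 5.85, and Tgfb2 was at least 1.53-fold lower in the TERC-/- pool. This bound sets the TERC+/+ value against the lowest signal of a detected probe on the TERC-/- array, and it holds for background-corrected values only. The difference was -0.26 with the background left in and -0.25 in the authors' deposited normalized values, both smaller than the bound.

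The receptors all lay within 2-fold. Tgfbr1, the type I receptor kinase, had 4 probes, of which 2 were detected. The brighter read 2499 in TERC+/+ and 3048 in TERC-/- and differed by 0.16 on the log2 scale, while the dimmer read 219 and 283 and differed by 0.61. The 2 probes thus differed in the same direction, with a gap of 0.45 between them. Over the 2870 genes with a further probe detected on both arrays, the median gap between probes was 0.21 and the 95th percentile 0.83, which measures how far probes of 1 gene disagree on these arrays and not the spread between mice.

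Tgfbr2, the type II receptor that binds ligand first, had 1 detected probe among 4. That probe read 2725 in TERC+/+ and 2182 in TERC-/-, with normalized log2 values of 11.43 and 10.96 and a difference of -0.47. Tgfbr3, the co-receptor betaglycan, had 1 detected probe of 2, which read 569 and 431 and differed by -0.54. Of the 3 receptors, the type I chain alone had a difference above 0. The differences of Tgfbr2 and Tgfbr3 were below the 25th percentile of all detected genes, -0.45.

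Both latency protein genes were lower in the TERC-/- pool by less than 2-fold. Ltbp1, which anchors latent TGF-beta in the matrix, had 7 probes, and the 1 that was detected read 562 in TERC+/+ and 401 in TERC-/-, a log2 difference of -0.66. Ltbp3, whose loss in mice disturbs bone growth and turnover, had 1 detected probe of 3, which read 754 and 532 and differed by -0.64. Their differences were close to those of Tgfb2 and Tgfbr3. The 6 undetected Ltbp1 probes read no higher than 167 on either array, and the mean difference over all 7 probes was 0.0052.

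Smad7, whose protein blocks the type I receptor and is itself switched on by TGF-beta, had 1 probe. It read 103 on the TERC+/+ array and 114 on the TERC-/- array, with detection p-values of 0.936 and 0.926. The probe was thus not above background in either pool, and no difference is given.

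**Figure D2:**
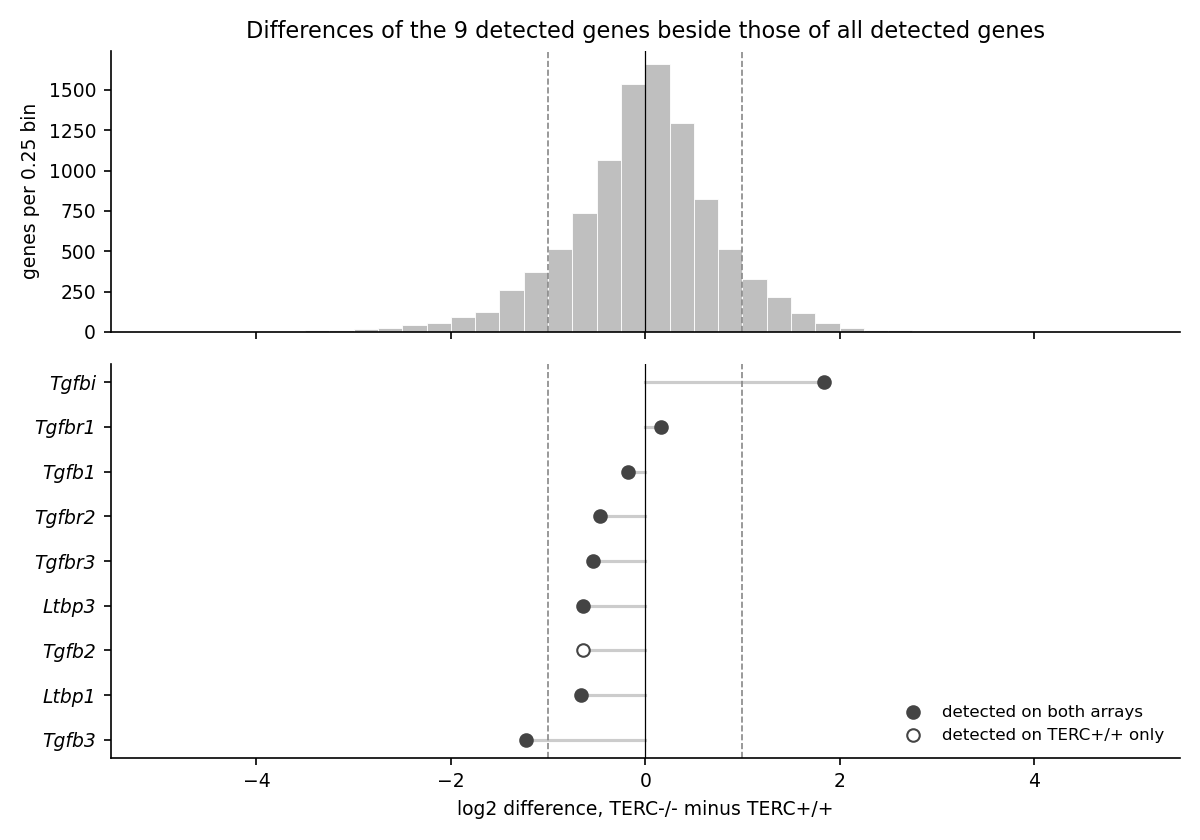
The upper panel counts all 9953 detected genes by log2 difference (TERC-/- minus TERC+/+) in bins of 0.25, and the lower panel gives the 9 detected TGF-beta genes on the same axis, with dashed lines at 2-fold and an open circle for Tgfb2. Tgfbi at 1.84 and Tgfb3 at -1.22 lie beyond the dashed lines.

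Tgfbi encodes a secreted matrix protein that was named for its induction by TGF-beta and binds collagen and integrins. It is expressed by connective tissue cells and by monocytes and macrophages. Its brighter probe read 2993 on the TERC+/+ array and 11605 on the TERC-/- array, a raw ratio of 3.88. The other probe read 583 and 2709, a raw ratio of 4.65. Both probes were far above background in both pools and both were higher in TERC-/-.

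After normalization the brighter probe had log2 values of 11.57 and 13.41 and a difference of 1.84, and the other had 8.91 and 11.28 and a difference of 2.37. The gap between the probes, 0.53, was larger than that of 84.5% of the genes with a further detected probe. Tgfbi was number 97 of 9953 from the highest, so 0.975% of detected genes differed by as much or more in this direction. Its difference lay between 1.71 and 2.10 under each alternative tried. The authors' deposited normalized values of the brighter probe were 3190 and 10446.

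Because Tgfbi carries the largest difference of the set and is named as a TGF-beta-induced gene, the 250 bases before its annotated start are shown (RefSeq, GRCm38.p6, chr13:56609336-56609585, plus strand). Capitals mark CAGAC, a sequence bound by SMAD proteins, or its reverse complement GTCTG.

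Tgfbi: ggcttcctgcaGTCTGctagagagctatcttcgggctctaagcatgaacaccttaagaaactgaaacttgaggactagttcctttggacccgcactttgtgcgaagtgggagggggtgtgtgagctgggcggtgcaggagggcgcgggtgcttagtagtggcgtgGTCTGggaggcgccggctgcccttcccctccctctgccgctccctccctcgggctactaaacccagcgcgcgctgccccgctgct

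The window held 2 matches, both as GTCTG on the strand shown. Searched on both strands, the 5 letters were found in 42.2% of the 32851 windows of this length in the RefSeq promoter table. Chromosome 18, which carries Smad7, was left out of the count for the TGF-beta genes. On the other chromosomes the table had 9 windows for 7 of these genes, and 7 of these 9 windows held a match. That of Tgfb1 did not, nor did 1 of the windows of Tgfbr1. A match of 5 letters describes the sequence and is not a measured site.

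Transcripts of other cells differed between the pools as well, and the marker lists that bear on these genes were measured on the same arrays. The shares over all detected genes, to set beside each count, were 6.86% 2-fold or more higher and 8.81% 2-fold or more lower. Of 6 detected monocyte and macrophage markers, 2 were 2-fold or more higher and 1 was 2-fold or more lower, and the summed normalized intensity of the list was 5451 in TERC+/+ and 3981 in TERC-/-. Itgam, the integrin chain CD11b, was at 2.21 and Cd14, the lipopolysaccharide co-receptor, at 1.73, in the same direction as Tgfbi. Mrc1, the macrophage mannose receptor, was at -1.15, and Csf1r, the receptor for macrophage colony-stimulating factor, at -0.20. A further Csf1r probe was at 0.60. Adgre1 was at -0.94. Siglec1, above background in TERC+/+ alone, was at -1.77 as measured and 1.86-fold lower by its bound, so within 2-fold. Of the 6 differences, 2 were above 0 and 4 below. Cd14, Mrc1, Csf1r, Adgre1 and Siglec1 were picked for mention after their values were seen. Thus the 6 detected markers of this list did not move together.

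Of 10 detected neutrophil markers, 4 were 2-fold or more higher, against 6.86% of all detected genes. None was 2-fold or more lower, against 8.81%, and the median of the neutrophil markers was 0.59. Their summed intensity was 221536 in TERC+/+ and 267188 in TERC-/-, and Prok2, a chemoattractant peptide of neutrophils, was at 4.34. Bright markers weigh most in this sum, and Ltf read 47315 in TERC+/+, near the highest reading of that array, 49790. Ltf was at -0.23, with a further probe at 0.86, and Mpo was at 0.17, with further probes from 0.64 to 1.99. Ltf and Mpo were picked for mention after their values were seen. The part of either cell type in the Tgfbi difference was not tested.

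Markers of cells that lay down matrix were on the other side of 0 from Tgfbi. All 6 detected osteoblast markers were 2-fold or more lower, against 8.81% of all detected genes. Their summed intensity was 48427 in TERC+/+ and 7806 in TERC-/-, and Bglap, osteocalcin, was at -3.82. All 4 detected fibroblast and tendon markers were also 2-fold or more lower, with sums of 21911 and 6859, while Tnmd and Scx, tendon markers, were not detected. Col3a1, a collagen of soft connective tissue, was at -2.77. Of 5 detected cartilage markers, 4 were 2-fold or more lower, and Col2a1, the main cartilage collagen, was at -2.21. The medians of the osteoblast, fibroblast and cartilage lists were -1.92, -2.11 and -1.22. Tgfb3, Tgfb2, Ltbp1, Ltbp3 and Tgfbr3 differed by between -1.22 and -0.54, and the part of these cells in that was not tested.

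Platelets carry much of the TGF-beta1 protein of blood. Of 8 detected megakaryocyte and platelet markers, 7 were 2-fold or more lower, against 8.81% of all detected genes. Gp6, the platelet collagen receptor, led at -1.71, and the summed intensity of the 8 markers was 57005 in TERC+/+ and 23471 in TERC-/-. Tgfb1 differed by -0.18 on the same arrays. The 3 detected osteoclast markers were within 2-fold, the largest difference being that of Acp5 at -0.58, and Calcr, Atp6v0d2 and Ocstamp were not detected. The 4 detected endothelial markers were within 2-fold, with Emcn at -0.42.

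The other lists differed in how many members passed 2-fold. The share of all detected genes that were 2-fold or more lower was 8.81%. All 6 detected erythroid markers were 2-fold or more lower (median -3.41), with Ermap, an erythroblast membrane protein, at -3.75. Of 3 detected B-cell markers 2 were 2-fold or more lower (median -1.99), with Vpreb3 at -3.11, and of 4 detected T-cell markers 3 were (median -1.33), with Cd3e at -1.60. Skeletal muscle had 2 of 6 markers 2-fold or more lower and 4 within 2-fold (median -0.96), with Mb, myoglobin, at -2.98. Of the adipocyte markers 1 was detected of 4 with a probe, Adipoq, at -1.66. A further Ermap probe was at -0.65, and a further Cd3e probe was at -0.89.

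**Figure D3:**
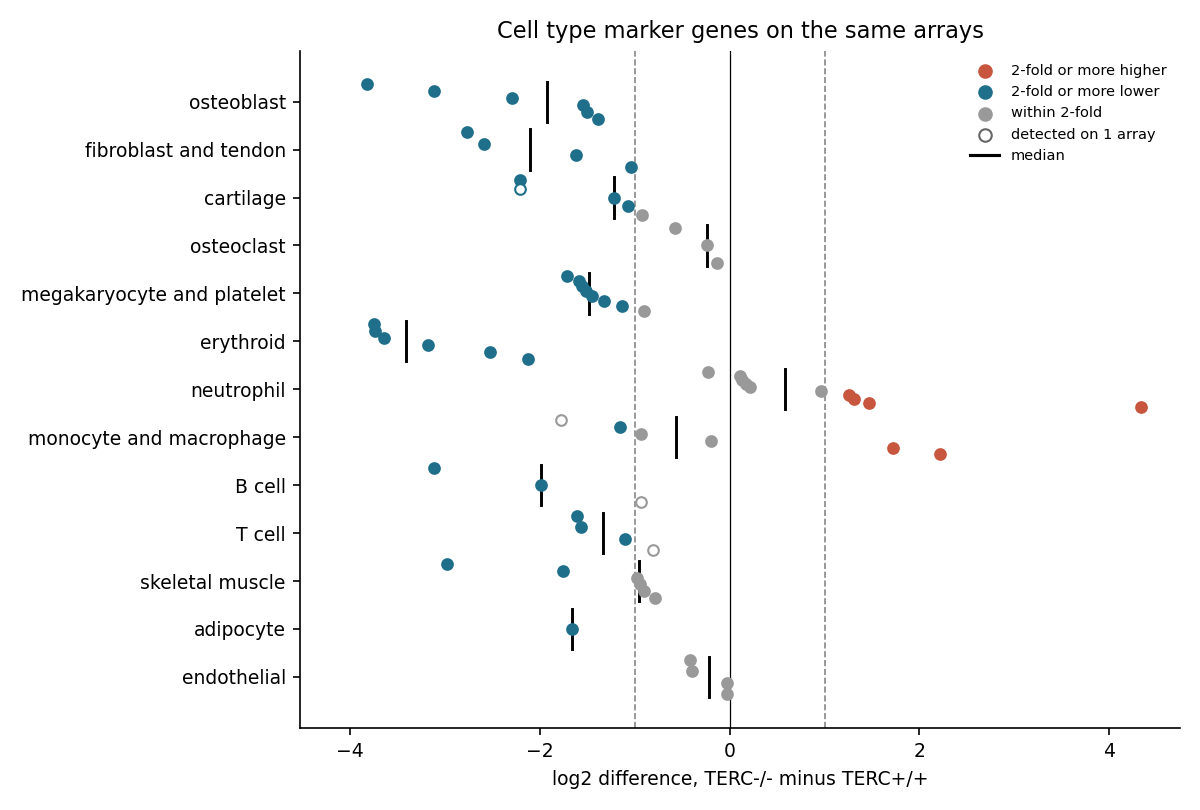
Log2 difference (TERC-/- minus TERC+/+) of the detected markers of 13 cell types, 1 circle per gene, with the list median as a bar, 2-fold as dashed lines and open circles for genes detected on 1 array. Osteoblast, fibroblast, erythroid and platelet markers lie to the left of 0, neutrophil markers mostly to the right, and monocyte and macrophage markers on both sides.

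The wider TGF-beta pathway was read from 64 further genes in 6 roles, of which 56 had a probe and 43 were detected. One was 2-fold or more higher and 11 were 2-fold or more lower, which is 25.6% of the list against 8.81% of all detected genes. The median was -0.11, against 0.01 for all detected genes, and 20 of the 43 differences were above 0. Without background correction these counts became 0 and 4, beside 4.89% lower over all detected genes, and they were also 0 and 4 in the authors' deposited normalized values, beside 5.08%. The median of the list was 0.014 after scaling to a common median, so its sign depends on the scaling.

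Matrix storage and binding genes were the role with the most negative median, -1.08. Of 7 detected members 5 were 2-fold or more lower, against 8.81% of all detected genes. This count does not hold without background correction or in the deposited values, where only 4 genes of the whole pathway list were 2-fold or more lower. Dcn, decorin, a small proteoglycan that binds TGF-beta, read 16897 in TERC+/+ and 6483 in TERC-/- and was 3.07-fold lower, and its 3 further probes lay between -2.19 and -1.34. Dcn is also on the fibroblast and tendon marker list, so its value is counted in both, and the osteoblast and fibroblast medians on the same arrays were -1.92 and -2.11. Ltbp4, a latent TGF-beta binding protein of elastic tissue, was at -1.43, with a further probe at -0.90. Fmod, fibromodulin, was at -1.24 on 1 probe and -1.26 on another. Vasn, vasorin, a membrane protein that traps TGF-beta, was at -1.08, and Bgn, biglycan, was at -1.01. The members not past 2-fold were Fn1, fibronectin, at -0.11 and Emilin1, a matrix protein that restrains processing of the precursor, at 0.50, both picked for mention after their values were seen. Ltbp2 and Aspn were not detected.

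Genes that activate or cleave the ligand precursor went both ways. Of 13 detected, 3 were 2-fold or more lower, against 8.81% of all detected genes. None was 2-fold or more higher, against 6.86%. Mmp2, gelatinase A, read 1939 in TERC+/+ and 848 in TERC-/- and was 2.62-fold lower. Thbs1, thrombospondin-1, which unfolds the latent complex and is also made by platelets, read 289 and 186 and was at -1.26. Its probe was dim, and the count of lower pathway genes fell from 11 to 4 with no background correction. Bmp1, a protease that trims collagens and latency proteins, was at -1.06, with further probes from -1.25 to -0.64. Mmp9, gelatinase B, a granule protein of neutrophils, was at 0.66. Itgb6, an integrin chain that activates latent TGF-beta, was above background in TERC+/+ alone and read 201 there and 152 in TERC-/-. Its bound was at least 1.63-fold lower in TERC-/-, so within 2-fold, and holds for background-corrected values only. A further Itgb6 probe was at -0.74.

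Signal transduction genes were mostly within 2-fold. Neither of the SMADs detected was past 2-fold, with Smad2 at 0.35 and Smad3 at 0.20, and both of these carry the signal of the activated type I receptor. Smad6 was not detected, and Smad4 had no probe. Among 7 detected co-receptors and receptor partners, 1 was 2-fold or more higher, against 6.86% of all detected genes. This was Acvrl1, the type I receptor ALK1 of endothelial cells, at 1.30. Its single probe was dim, with readings of 199 and 340. Strap, a receptor-associated protein, was at 0.07. Dab2 was at -0.71, with further probes from -0.70 to -0.29, and Eng was at -0.64. Dab2 and Eng were picked for mention after their values were seen. Of the 7 differences of this role, 4 were above 0 and 3 below.

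Of 6 detected genes on the list of inhibitors and co-repressors, 1 was 2-fold or more lower, against 8.81% of all detected genes. This was Usp15 at -1.15, a deubiquitinating enzyme that is known to stabilise the type I receptor and so does not do what the list's name says. Its further probes disagreed, from -0.70 to 0.08. Ppm1a, a phosphatase that acts on SMADs, was at 0.08.

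Genes known to respond to TGF-beta did not share a direction. Of 8 detected targets, 2 were 2-fold or more lower and none 2-fold or more higher, with a median of -0.22. The shares over all detected genes were 8.81% lower and 6.86% higher. Col1a1, a chain of type I collagen and also an osteoblast marker, read 11750 in TERC+/+ and 2755 in TERC-/- and was 4.91-fold lower, and Tsc22d1, a leucine zipper protein, was at -1.40. Ccn2, connective tissue growth factor, read 4526 and 5141 and was at 0.02. Cdkn1a, the cell cycle inhibitor p21, was at 0.24 and Acta2, smooth muscle actin, at -0.38. Ccn2, Cdkn1a and Acta2 were picked for mention after their values were seen. Tgfbi, at 1.84, stood apart in direction from both target genes past 2-fold.

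**Figure D4:**
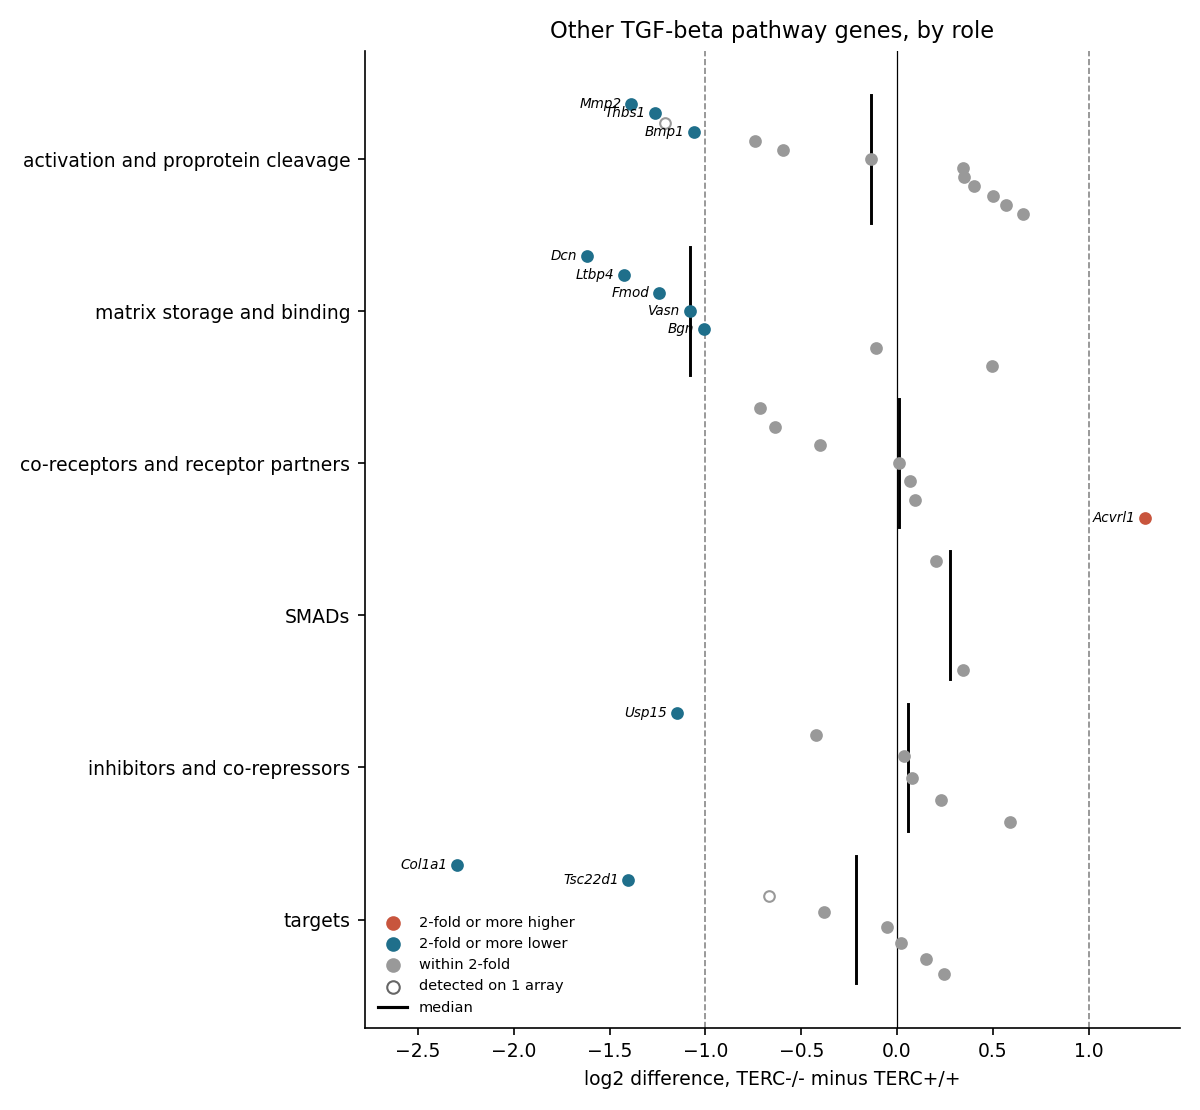
Log2 difference (TERC-/- minus TERC+/+) of 43 detected genes of the TGF-beta pathway in 6 roles, 1 circle per gene, with the median of each role as a bar and names for genes past 2-fold. Of the 11 genes that were 2-fold or more lower, 5 are matrix storage and binding genes, and Acvrl1 is the 1 gene that was 2-fold or more higher. Without background correction the counts were 4 lower and 0 higher.

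**Figure D5:**
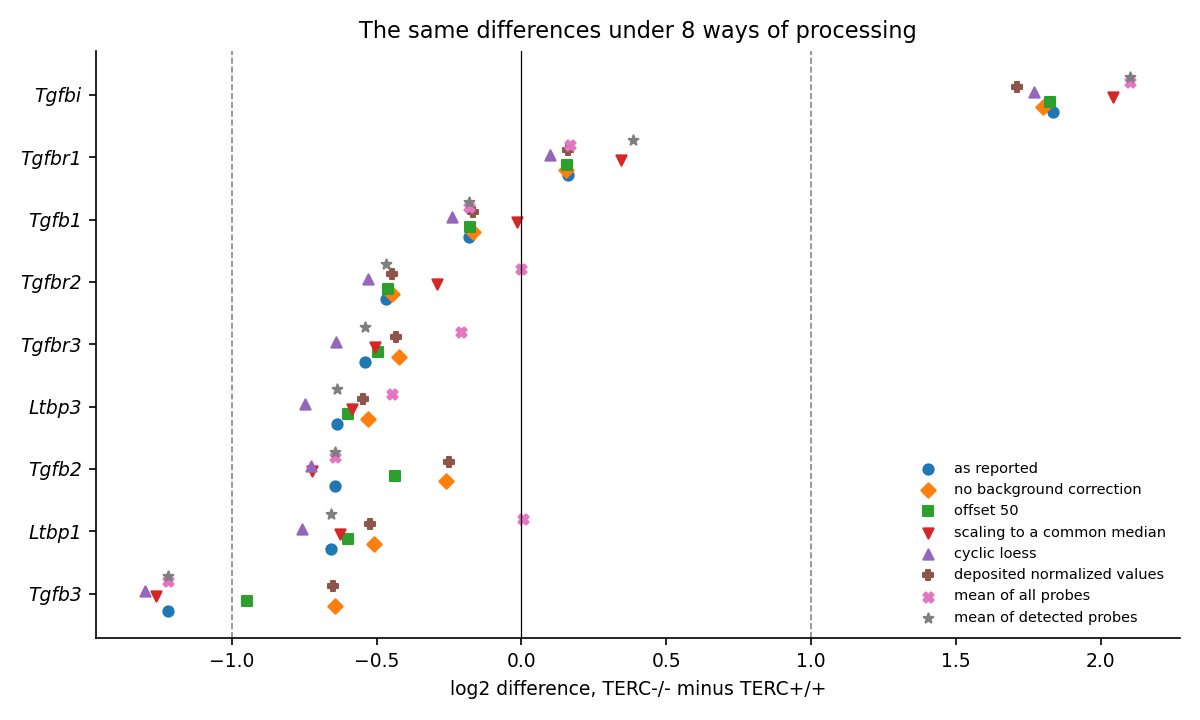
Log2 difference (TERC-/- minus TERC+/+) of the 9 detected TGF-beta genes under 8 ways of processing, each with its own symbol, with dashed lines at 2-fold. Tgfbi stays beyond 2-fold in all 8, and Tgfb3 lies between -1.30 and -0.64.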

How the data were processed

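The authors deposited non-normalized signal for 45281 probes on each array, an intensity on a linear scale that was not background-subtracted (lowest value 88.7), together with a detection p-value for each probe, per the file headers. Their second deposited table holds intensity after normalization by a method not given in the sources used here, and it was used as an alternative. Per the labels' protocols, RNA was extracted with Trizol, column-cleaned and amplified as biotinylated cRNA.

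From the non-normalized intensities, background was corrected with normexp from the detection p-values (limma 3.58.1, function nec with an offset of 16, under R 4.3.3), followed by quantile normalization and log2. Platform annotation gave 34885 probes 1 gene symbol, 18 several and 10378 none here. A gene was represented by its brightest probe, and genes detected on at least 1 array were compared. A gene detected on 1 array only was counted by its bound, and the bounds printed here hold for background-corrected values only. With 1 array per genotype there was no test, and precision is limited by the number of arrays. Levels of different probes were compared to choose the brightest probe of a gene and the gene with the highest signal in each role. They were also summed over the markers of a list. Otherwise no level was compared between probes.

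The member genes, the pathway list and the marker lists were chosen with earlier results of these data known. Named from them were all members, pathway genes past 2-fold by value or bound, the gene with the largest difference and the one with the highest signal in each role, and the gene with the largest difference of each marker list. Simulated data with known folds were used to test the procedure. The probes changed in them were well above background, so dim probes such as those of Tgfb2, Tgfb3, Thbs1, Itgb6 and Acvrl1 were not covered. Figures were drawn with matplotlib 3.10.9.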

Additional observations from a re-analysis of the deposited data

How the results depend on the processing

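No paired analysis was possible because each genotype had 1 array, and for the same reason no replicate could be left out. Tgfbi was 2-fold or more higher under every alternative tried, between 1.71 and 2.10. Tgfb3 was -0.64 with no background correction, -0.95 with an offset of 50 and -0.65 in the deposited normalized values, and in these 3 settings, as at a 3-fold threshold, 0 of the genes were past the threshold on the lower side. At 1.5-fold 4 of 9 were lower, where 17% of all detected genes were. Ltbp1 was 0.0052 when all 7 of its probes were averaged, 6 of which were undetected, and stayed between -0.76 and -0.51 otherwise. Tgfbr2, with 3 of 4 probes undetected, came to -0.00071 in that setting. The median of the detected TGF-beta genes lay between -0.64 and -0.18. Of the wider pathway, 0 genes were higher and 4 lower with no background correction and in the deposited values, and 7 were lower with the mean of all probes, against 5.82% of all genes. At 1.5-fold 3 of 43 were higher and 16 lower, against 17% of all genes each way, and at 3-fold 0 were higher and 2 lower, against 1.76% and 3.06%. The pathway median was 0.014 after scaling to a common median. Over all genes, 355 were higher and 487 lower with no background correction, against 683 and 877 as reported. The mean of a gene's detected probes was added after the data were seen. Signal over background limits Tgfb2, Tgfb3 and Smad7.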
